A study of Arabidopsis thaliana with 8 samples.

Results

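WES1 (AT4G27260, also called GH3.5) and EXPA8 (AT2G40610) are a pair of growth-related genes of Arabidopsis thaliana, taken here as every probe set that the platform annotation gives to either gene alone. Each gene had 1 such probe set, 16989_at for WES1 and 19660_at for EXPA8, so the members are 2 of the 3602 genes with a probe set of their own on the array. RNA came from the aerial parts of rosettes that had not yet bolted. Wild type (WT) was compared with the mutant yda-2. The mutated gene is YODA (YDA), whose product is a mitogen-activated protein kinase kinase kinase known for restraining the formation of stomata. Both genotypes grew on potting mix under constant light at 22 °C, and each was measured on 4 Affymetrix AtGenome1 arrays. Per the labels, each of the 4 replicates was raised and collected at another time. A replicate number is called a harvest here, and the WT and yda-2 arrays of 1 number a pair. The labels used here give neither the accession of the wild type, nor the age of the plants, nor how many plants went into a sample, and the transcript of YDA was not analysed here, which leaves the genotype of each array unchecked by the gene itself.

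GH3 enzymes join amino acids to plant hormones. Those of the group that holds WES1 act on the auxin indole-3-acetic acid and so lower the free hormone, and their transcripts are typically induced by auxin itself. WES1 is also known to respond to salicylic acid and to stress. Expansins are secreted proteins that loosen the cell wall under acid conditions without cutting its polymers, and EXPA8 belongs to the alpha-expansins, the branch best known from cell enlargement in leaves and stems.

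The values are signals on a linear scale that the authors scaled to a common target of 500, with no detection calls. Differences are given as log2(signal + 16), yda-2 minus WT, a scale that understates changes of dim probe sets. A probe set was tested if its mean signal over the 8 arrays reached 100, which 4788 did, both members among them. The arrays of harvests 1 and 2 reached maximum signals between 22519 and 33920 and those of harvests 3 and 4 between 6226 and 10422, each set holding both genotypes equally. The WT array of harvest 2 stood apart, with a mean correlation of 0.819 with the other arrays across tested probe sets against 0.873 to 0.903 for the rest. Of the 12 rosette leaf markers, 1 had a probe set of its own. It was RCA, the activase of the carbon-fixing enzyme Rubisco, at 837 to 22444 over the arrays, with its lowest signals in harvests 3 and 4. Its log2 difference within pairs ran from -2.28 in harvest 3 to 1.02 in harvest 4. The 7 flower, 8 seed and 8 root markers had 0 named probe sets, so RNA from those tissues could not be looked for.

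WES1 had the higher signal in yda-2. In WT its signal was 363.8, 259.6, 127.0 and 184.0 in harvests 1 to 4. In yda-2 it was 498.7, 298.9, 438.0 and 461.1. Every yda-2 array lay above the WT array of its own harvest, but the groups overlapped, since WT in harvest 1 exceeded yda-2 in harvest 2. The WT mean was 233.6 ± 102.4 and the yda-2 mean 424.2 ± 87.2 (SD, n = 4 each), a ratio of 1.82. The log2 difference was 0.89 (SE 0.33, and 0.29 with the pairs as a block).

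EXPA8 had the lower signal in yda-2. In WT its signal was 2013.5, 2387.3, 857.1 and 3926.1 in harvests 1 to 4. In yda-2 it was 859.7, 1426.2, 754.2 and 1909.3. Again every pair pointed the same way and the groups overlapped, because WT in harvest 3 was as low as the lowest yda-2 arrays. The WT mean was 2296 ± 1267 and the yda-2 mean 1237 ± 536 (SD, n = 4 each), 1.86 times as much in WT. The log2 difference was -0.79 (SE 0.44, and 0.21 with the pairs as a block). Both genes were chosen by the difference within pairs, which favours a small SE with the block. As these are whole rosettes, fewer cells that make a transcript and less of it per cell cannot be told apart.

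**Figure D1:**
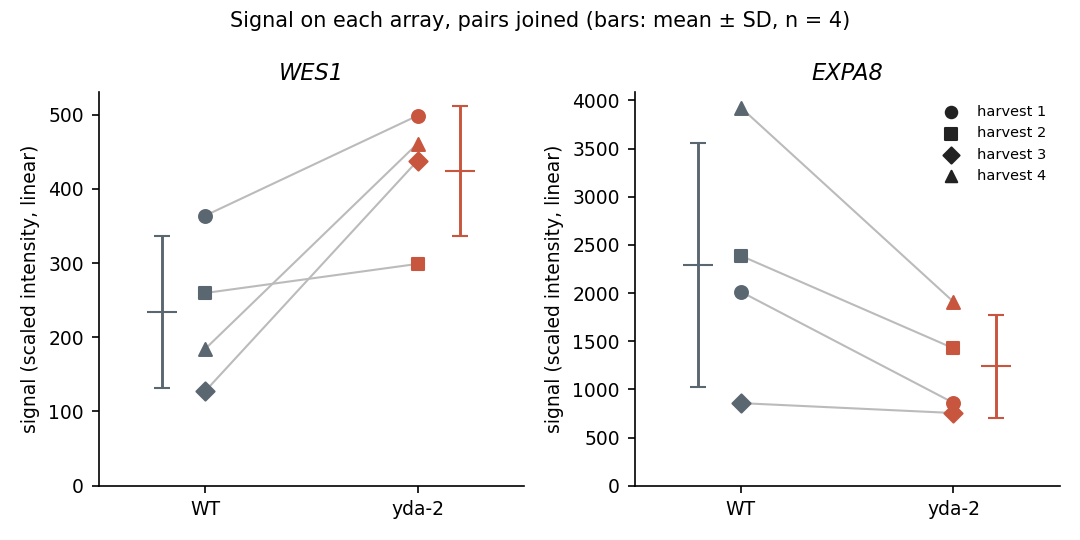
Signal of WES1 (left) and EXPA8 (right) on each of the 8 arrays, on a linear axis from 0; grey lines join the arrays of 1 harvest, marker shapes give the harvest, and the bars beside the points are mean ± SD (n = 4). All 4 WES1 lines rise and all 4 EXPA8 lines fall from WT to yda-2, while the ranges of the genotypes overlap for both genes.

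Both genes were chosen because of this genotype difference within pairs, so the values above are a description and carry no test. For reference, 0 of the 2 passed an adjusted p of 0.05 in limma over all tested probe sets, where 0.0418% passed, and 0 of 2 with the replicate block, where 0.188% passed. At an unadjusted p under 0.05 stood 1 of 2 without the block, beside 3.22% of all probe sets, and 2 of 2 with it, beside 7.1%. Groups without overlap, which neither gene had, were found for 1.73% of tested probe sets with yda-2 above WT and for 0.647% with yda-2 below. WES1 is 1 of the 9.44% of tested probe sets that were higher in yda-2 in every pair, and EXPA8 1 of the 7.1% that were lower in every pair. Nothing is read from these shares, since the choice of the genes used the contrast. In the order by which they were picked, the tested GH3 gene next to WES1 was GH3.3 and the tested expansin next to EXPA8 was EXPA4. Their log2 differences were 0.83 and -0.25.

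The size of the difference varied from harvest to harvest, and not in the same way for the 2 genes. For WES1 the yda-2 signal was 1.37 times the WT signal in harvest 1 and 1.15 times in harvest 2, but 3.45 times in harvest 3 and 2.51 times in harvest 4. The mean log2 difference was accordingly 0.32 within the arrays of harvests 1 and 2 and 1.46 within those of harvests 3 and 4. The WT signal made most of this contrast: on the log2 scale its mean was 8.34 in the first set of arrays and 7.40 in the second, whereas the yda-2 mean was 8.65 and 8.86. Over all harvests, the highest WT signal was 2.86 times the lowest (harvest 1 over harvest 3). The highest yda-2 signal was 1.67 times the lowest (harvest 1 over harvest 2, both in the first set of arrays). These ratios come from the same signals and add no separate evidence.

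For EXPA8 the WT signal was 2.34 times the yda-2 signal in harvest 1, 1.67 times in harvest 2 and 2.06 times in harvest 4. In harvest 3 it was 1.14 times, with both arrays low. The mean log2 difference was -0.97 within harvests 1 and 2 and -0.61 within harvests 3 and 4. Whether the genotype difference of either gene depended on the harvest was not tested, as each harvest held 1 array per genotype. The harvest with the smallest EXPA8 difference, the third, was the one with the largest WES1 difference.

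The array that stood apart did not carry either difference. Without WT replicate 2, WES1 had a log2 difference of 0.97 and EXPA8 of -0.71. EXPA8 leaned more on other single arrays: it was -1.20 without WT replicate 3 and -0.47 without WT replicate 4. Leaving out any 1 array kept WES1 between 0.65 and 1.12, lowest without WT replicate 3. Some RNA quality and control measures moved with the genotype in the same pairs. The log2 ratio of the 3' to the 5' ubiquitin probe set was higher in yda-2 in 4 of 4 pairs, by 0.34 on average, and the added bacterial and phage hybridization controls had a lower mean log2 signal in 4 of 4, at -0.39 on average. Both shifts were smallest in harvest 3, at 0.007 and -0.071. The 3' to 5' ratio of GAPDH was higher in 2 of 4 pairs. Their part in the WES1 and EXPA8 differences was not tested.

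**Figure D2:**
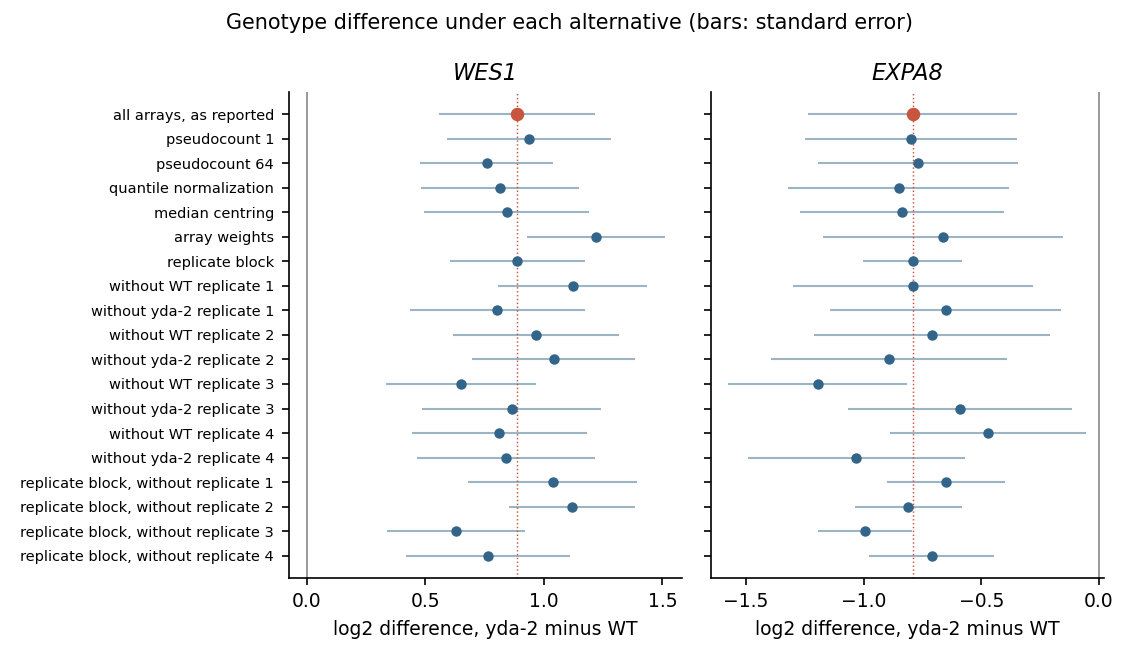
Genotype difference of WES1 (left) and EXPA8 (right) on the log2(signal + pseudocount) scale under each processing alternative; points are fitted differences, bars their standard errors, the red point and dotted line the value as reported, and the grey line 0. WES1 lies between 0.63 and 1.22 and EXPA8 between -1.20 and -0.47 over the alternatives drawn.

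With 1 array per harvest in each genotype, a harvest change within a genotype could not be tested. On the arrays of both genotypes the signal of EXPA8 differed between harvests. Its mean signal over a pair was 805.7 in harvest 3, 1437 in harvest 1, 1907 in harvest 2 and 2918 in harvest 4, and this order was the same in WT and in yda-2. Such agreement of order held for 613 of the tested probe sets, 12.8%. In a moderated F test over the 4 harvests with genotype in the fit (limma), EXPA8 passed with adjusted p = 0.0292, as did 397 probe sets or 8.29% of those tested. The harvest means of EXPA8 spanned 1.75 on the log2 scale. A range over 4 harvest means is another measure than a difference of 2 group means, so it is not set against the genotype difference of -0.79. The harvest contrast did not choose the gene, though it shares the residual spread with the one that did. A choice by the difference within pairs favours a small residual spread. It thereby favours a pass for harvest and the same order of harvests in both genotypes, and by how much was not tested.

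The call for EXPA8 was a narrow one. It passed in 9 of 20 alternatives and not in the other 11. Without WT replicate 2 the adjusted p was 0.0109, but leaving out WT replicate 1 gave 0.122, WT replicate 3 gave 0.104 and WT replicate 4 gave 0.109. Leaving out yda-2 replicates 1 and 4 gave 0.138 and 0.0601. Without the whole of harvest 1, 3 or 4 it was 0.0863, 0.0906 and 0.111. It was 0.0531 after median centring, 0.0510 with no filter and 0.0821 without the intensity trend. Harvest and the arrays on which it was measured cannot be told apart.

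WES1 did not pass for harvest (adjusted p = 0.486, and 0.185 to 0.919 over the alternatives). Its pair means spanned 0.80 on the log2 scale. The order of the harvests differed between the genotypes: harvest 3 was the lowest in WT, and harvest 2 the lowest in yda-2, while harvest 1 was the highest in both.

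**Figure D3:**
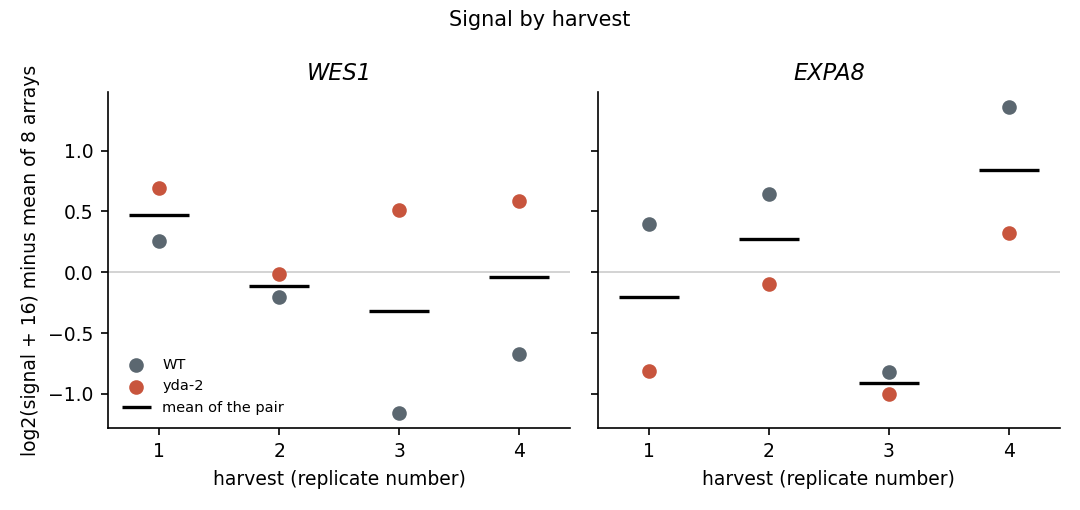
Log2(signal + 16) of WES1 (left) and EXPA8 (right) by harvest, each relative to the gene's mean over 8 arrays; points are single arrays, black lines the mean of the pair. EXPA8 is lowest in harvest 3 and highest in harvest 4 in both genotypes, and WES1 parts the genotypes most in harvests 3 and 4.

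Among the other GH3 genes, GH3.3, a close relative of WES1 that conjugates the same auxin, was bright enough to be tested and did not pass. Its signal in WT was 114.9, 147.7, 83.4 and 180.4 in harvests 1 to 4. In yda-2 it was 259.9, 98.3, 295.1 and 410.9. It was above WT in 3 of 4 pairs, with the exception in harvest 2, the harvest in which WES1 also differed least. The means were 131.6 ± 41.8 and 266.1 ± 129.1 (SD, n = 4), and the log2 difference was 0.83 (SE 0.42, limma adjusted p = 1.00, and 0.703 with the replicate block). Without yda-2 replicate 2 it was 1.22 (adjusted p = 0.869), and in the blocked fit without pair 2 it was 1.28 (adjusted p = 0.0523). Pair 2 was the only one against the direction, so leaving it out had to raise the difference. In the blocked fit without pair 1, 3 or 4 it was 0.75, 0.56 and 0.73 (adjusted p = 0.830, 0.848 and 0.782). Over all tested probe sets, 28 passed in the blocked fit without pair 2, against 9 with every pair. Over the 8 arrays the log2 signals of WES1 and GH3.3 correlated at 0.70, rank 43 of 2033 single-gene probe sets. This is a description over 8 arrays that share genotype and harvest. Whether probes for one GH3 gene also bind transcripts of another was not tested.

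The remaining GH3 genes were dim. Mean signals of GH3.9 were 34.3 ± 22.8 (WT) and 77.2 ± 43.4 (yda-2; SD, n = 4), and those of GH3.1, another auxin-induced member, 35.2 ± 19.9 and 47.3 ± 17.4. Their log2 differences were 0.81 and 0.35, and neither reached the mean signal needed for testing. Of the 11 GH3 genes on the list, 4 had a probe set of their own. The value of GH3.1 came mostly from pair 2, at 1.20 against -0.02 to 0.16 in the other pairs, and was 0.11 without WT replicate 2, the array that stood apart. All 3 beside WES1 had differences above 0, as did 53% of all tested probe sets, and 1 of them was tested and 0 passed.

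The other tested expansins, EXPA4 and EXPA15, had differences closer to 0 than EXPA8. EXPA4 averaged 882.7 ± 89.6 (WT) and 748.9 ± 156.5 (yda-2; SD, n = 4). It was lower in 3 of 4 pairs, and its log2 difference was -0.25 (SE 0.23). EXPA15 averaged 400.9 ± 39.1 and 388.4 ± 117.8, a log2 difference of -0.08 (SE 0.26) that turned to 0.064 without yda-2 replicate 2. Both are alpha-expansins like EXPA8, and neither passed (limma adjusted p = 1.00 each, and 0.801 and 0.935 with the block). Neither passed for harvest either (adjusted p = 0.737 and 0.528). That the difference of EXPA8 is larger than theirs was not tested.

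The other expansin probe sets lay under a mean signal of 100 and were not tested. EXPA20, an alpha-expansin, was at 279.0 in WT replicate 2, the array that stood apart, and between 3.0 and 14.4 on the other 7 arrays. Its log2 difference of -0.86, further from 0 than that of EXPA8, became 0.045 without that array. The 2 probe sets of the beta-expansin EXPB1 disagreed, with log2 differences of 0.27 and -0.69. EXPB2, also a beta-expansin, and EXLA2, of the expansin-like branch, were at -0.04 and 0.19. Of the 28 expansins listed, 7 had a named probe set. Of the 7 probe sets beside that of EXPA8, 5 had differences below 0 and 2 above. The share above 0 over all tested probe sets was 53%, and 5 of these 7 were too dim for testing. Without WT replicate 2, EXPA20 and EXPB2 changed sign, and the counts became 3 below and 4 above.

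**Figure D4:**
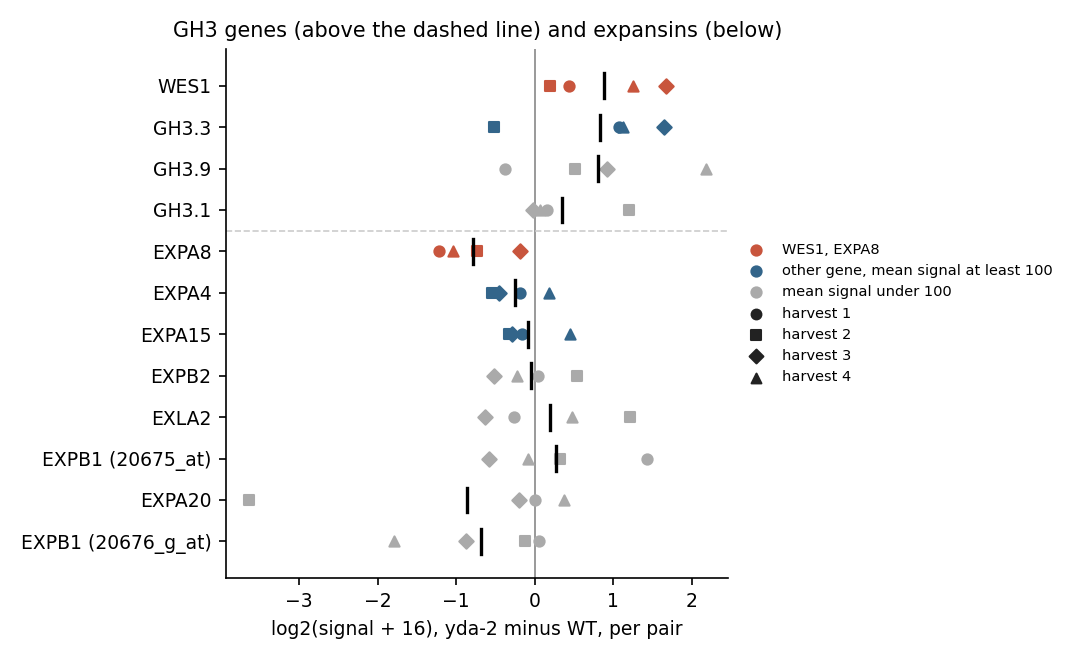
Difference between yda-2 and WT in log2(signal + 16) for each pair, for the GH3 genes above the dashed line and the expansins below it; marker shapes give the harvest, black ticks the mean of 4 pairs, and grey points probe sets with a mean signal under 100. WES1 lies right of 0 and EXPA8 left of 0 in all 4 pairs, and GH3.3 lies right of 0 in 3 of 4.

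The wider auxin and cell wall machinery could be followed for few genes. The 10 lists of auxin, salicylic acid, cell wall and water uptake genes held 183 genes, 20 of which had a probe set of their own. Apart from WES1 and EXPA8, 8 were tested. Of these 8, 0 passed in limma with or without the block, against 0.0418% and 0.188% of all tested probe sets, and at an unadjusted p under 0.05 stood 0 and, with the block, 1, GH3.3. Their differences were above 0 for 4 and below 0 for 4, beside 53% above 0 over all tested probe sets, with a median of -0.0044 beside 0.02 over all of those, and their blocked adjusted p lay between 0.703 and 0.965.

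IAA18 and IAA20, of the Aux/IAA proteins that repress auxin-responsive transcription, had log2 differences of -0.06 and -0.27. The latter came from the 1 of 3 IAA20 probe sets that was bright enough to be tested, with a mean signal of 233. The remaining IAA20 probe sets averaged 10.6 and 10.1, with log2 differences of 0.35 and -0.11. The probe sets of IAA20 thus disagreed in level and in direction. IAA15 of the same family was at 302.5 in WT replicate 2 and between 4.8 and 113.1 elsewhere. YUC2, a flavin monooxygenase of auxin synthesis, averaged 61.2 ± 13.1 (WT) and 70.5 ± 26.0 (yda-2; SD, n = 4) and was not tested. The lists of auxin receptors and response factors, of auxin transport and of proton pumps and aquaporins had 0 named probe sets. WRKY53, a transcription factor gene of the salicylic acid list, had a log2 difference of 0.05. It passed for harvest (adjusted p = 0.00649), as did 8.29% of all tested probe sets, among them the leaf marker RCA (adjusted p = 0.0110). EXGT-A3, which encodes a xyloglucan endotransglucosylase that remodels wall polymers, had a log2 difference of 0.35. COB, which encodes a membrane-anchored protein needed for oriented cellulose deposition, had 0.08. GH3.3, IAA18, IAA20, EXGT-A3 and COB did not pass for harvest (adjusted p = 0.227 to 0.544).

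The genes whose signal followed WES1 most closely were picked by Pearson correlation of the log2 signals over the 8 arrays among 2033 single-gene probe sets. They were DIM1A, which encodes a ribosomal RNA dimethylase (r = 0.92), AT4G39140 (0.91), AT4G21910 (0.91), AT2G19730 (0.90) and AT2G25450 (0.89). Their log2 differences between genotypes ran from 0.25 to 1.36, 4 of the 5 were higher in yda-2 in every pair, and none passed in either limma fit (lowest blocked adjusted p = 0.328). Of all tested probe sets 9.44% were higher in every pair, but nothing is read from the count, since likeness to WES1 favours genes with its direction. AT2G25450 had the largest difference of the 5, with a mean of 188.7 ± 172.1 (WT) and 419.2 ± 93.6 (yda-2; SD, n = 4). The lowest correlations with WES1 belonged to AT2G20100 (-0.89), MSRB6, a methionine sulfoxide reductase gene (-0.88), and AT1G04480 (-0.86). With the harvest means taken out, a correlation rests on the 4 pair differences alone, the values that chose WES1 and EXPA8, so the order is only described. The closest to WES1 were then AT2G37540 (0.99), AT1G05070 (0.99) and AT2G20870 (0.99).

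The genes closest to EXPA8 were AT2G34590 (r = 0.91), AT4G29590 (0.90), AT1G22910 (0.84), AT1G09230 (0.84) and AT2G46100 (0.83). Their log2 differences between genotypes ran from -0.43 to -0.20, 3 of the 5 were lower in yda-2 in every pair, beside 7.1% of all tested probe sets, and none passed in either fit (lowest blocked adjusted p = 0.716). As for WES1, this direction follows from how the genes were picked and is only described. No other expansin was among them, and EXPA4 correlated with EXPA8 at 0.17, rank 707 of 2033. The lowest correlation with EXPA8 was that of EXO (-0.85), the EXORDIUM gene, known for promoting leaf cell expansion downstream of brassinosteroids. It averaged 1763 ± 1206 (WT) and 1851 ± 634 (yda-2; SD, n = 4). AT5G11850 (-0.84) and AT4G32285 (-0.80) came next. On the pair differences alone, again only as a description, the closest to EXPA8 were AT1G11820 (0.98), AT4G02200 (0.98) and AT1G78820 (0.97).

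WES1 and EXPA8 themselves were weakly related, with r = -0.23 over the 8 arrays and -0.60 after the harvest means were taken out. Every pair had WES1 higher and EXPA8 lower in yda-2, which is how the genes were chosen, so nothing is read from the latter value. After quantile normalization 3 of the 5 genes closest to WES1 and 2 of the 5 closest to EXPA8 were still among the 5.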

How the data were processed

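Per the labels, RNA from 4 WT and 4 yda-2 samples was hybridized to 1-colour Affymetrix AtGenome1 arrays, and the authors scaled the average signal to 500. The deposited values are signal intensity, 1 per probe set and array; the summary algorithm is not given in the sources used here. Groups and replicate numbers come from the sample titles.

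Tests left out the 50 control probe sets and those with a mean signal under 100 over the 8 arrays, which kept 4788 of 8297, and log2(signal + 16) was fitted with limma 3.58.1 in R 4.3.3 (lmFit, eBayes with trend, two-sided, Benjamini-Hochberg over all tested probe sets, threshold 0.05). The fit without the replicate block is the main one. The labels give the replicates as separate harvests, so the numbers were taken as pairs. Same-numbered arrays deviated together from their group means (correlations 0.596, 0.296, 0.324 and 0.577). Arrays with different numbers were not correlated in this way, so these values do not show that same-numbered arrays match better than others. Harvests were compared with a moderated F test over replicate numbers with genotype in the fit. The number of arrays limits the precision.

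Names come from the platform annotation (3794 probe sets with 1 gene, 70 with several, 4383 with none), updated to assembly TAIR10.1 through gene identifiers, which matched 3784. A probe set without a name may still measure a listed gene.

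The members and gene lists were chosen with earlier results of these data known. The text names the members, all GH3 and expansin genes on the array, from each other list up to 3 of smallest p, and the genes of highest and lowest correlation (5 and 3 over 8 arrays, 3 after removing harvest means). Dim genes of the other lists, too faint for testing, were chosen with their values in view.

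In simulations on these 4788 probe sets (10 runs, 200 changed), the genotype fit found 3.1% of 2-fold and 65.5% of 4-fold changes, the blocked fit 33% and 80.3%, and the harvest test 38.2% of 4-fold and 68.9% of 8-fold spans over the harvests. False calls were 1.02%, 4.13% and 3.57%. The alternatives were pseudocounts of 1 and 64, a minimum of 200 or none, quantile normalization, median centring, no trend, array weights, the replicate block, and leaving out each array or pair. Their reading for single genes, for the closest genes and for the order of the harvests was chosen after seeing the data. Figures were drawn with matplotlib 3.10.9.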

Additional observations from a re-analysis of the deposited data

Results flagged for a closer look

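In WT, EXPA4 in replicate 3 lay apart from the other 3 arrays, at 1016.4 against 826.6 to 848.8. Its gap to the nearest array was 0.872 of the group's range on the log2 scale, above Dixon's 95% critical value for 4 samples. Chance gives such a gap in about 1 in 20 groups, and 22 groups of 4 arrays were looked at, those of WES1, EXPA8 and the tested genes of the lists. None of the groups of WES1 and EXPA8 had such a gap.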

How the results depend on the processing

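The genotype differences of WES1 and EXPA8 kept their direction under all 18 alternatives run for each, and moved by less than the spread between replicates. For each gene every pair had the same direction, so the block, leaving out a pair and the pseudocounts could not turn it. The genes were also chosen for this difference, so the count of 18 is only a description. WES1 lay between 0.76 and 1.22 under the settings that used all arrays and EXPA8 between -0.85 and -0.66. In the blocked fit the values were the same, 0.89 and -0.79, and leaving out a pair with the replicate block gave 0.63 to 1.12 and -0.99 to -0.65.

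The count of probe sets passing for genotype, 2 over all arrays, was 9 with the replicate block and 11 with array weights, 0 with a pseudocount of 1, a minimum of 200, quantile normalization or median centring, and 1 with no filter. It was 0 to 2 without 1 array, and 0 to 28 with the replicate block without 1 pair. The count passing for harvest, 397, was 230 with no filter, 191 after quantile normalization, 138 without the trend and 883 with array weights, 31 to 1474 without 1 array and 51 to 646 without 1 harvest. For EXPA8 the adjusted p of the harvest test, 0.0292, was 0.0510 with no filter, 0.0531 after median centring and 0.0821 without the trend, 0.00849 to 0.138 without 1 array and 0.00789 to 0.111 without 1 harvest. The cause was not tested.

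Signs turned for 5 tested genes. IAA18 was 0.18 with array weights, -0.34 to 0.27 without 1 array and, in the blocked fit without pairs 1 and 2, 0.10 and 0.19. IAA20 was 0.062 with array weights and 0.069 in the blocked fit without pair 2. WRKY53 was -0.023 after quantile normalization, -0.53 to 0.53 without 1 array and, in the blocked fit without pairs 3 and 4, -0.071 and -0.049. EXPA15 was -0.26 to 0.064 without 1 array. RCA, -0.44, was -1.47 to 0.14 without 1 array and 0.17 in the blocked fit without pair 3. None of the 8 tested list genes other than WES1 and EXPA8, nor RCA, passed for genotype under the alternatives run for it. Of the untested expansins, EXPA20 (-0.86) was 0.045 and EXPB2 (-0.04) was 0.099 without WT replicate 2, a setting chosen for these genes after seeing the data.

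With no detection calls, signals near the pseudocount have no known floor.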
